A study of Mus musculus with 12 samples.

Results

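The genes of 3 effector cytokines of T helper 17 (Th17) cells, Il17a, Il17f and Il22, and of both chains of the receptor for IL-17A and IL-17F, Il17ra and Il17rc, were measured in mouse CD4+ T cells. The cells came from the multiple sclerosis model experimental autoimmune encephalomyelitis (EAE) or served as its starting material. The 5 genes were chosen by name, as the probes carrying these symbols in the array files, and each was represented by its brightest probe. They are 5 of 30101 named genes and have 6 probes, since Il17rc has 2. All 5 passed the filter that left 18631 genes for testing (a signal well above background in all 3 replicates of some group).

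IL-17A and IL-17F are related cytokines, secreted as homodimers or as a heterodimer, and both signal through a receptor made of IL-17RA and IL-17RC. IL-17RA is expressed on most cells and is shared by several cytokines of the family, while IL-17RC is more restricted. IL-22 belongs to the IL-10 family and acts on epithelial and other non-haematopoietic cells through IL-22RA1 and IL-10RB. In EAE, Th17 cells enter the central nervous system (CNS), where IL-17 acts on glial and stromal cells, which then make chemokines that attract neutrophils and monocytes.

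Total RNA of 12 samples in 4 groups of 3 was hybridised to single-colour microarrays, with replicates from 3 independent experiments. The first group was CD4+ T cells taken from the CNS of C57BL/6 mice with EAE after immunisation with a MOG (myelin oligodendrocyte glycoprotein) peptide (immunised CNS). The second was CD4+ T cells from the CNS of Rag1-/- mice in which EAE had been caused by transfer of B6.2d2 Th17 cells made in culture (transferred CNS). The third was B6.2d2 Th17 cells differentiated in culture from naive CD4+ T cells (cultured Th17), and the fourth was naive CD4+ T cells of B6.2d2 spleens (naive CD4). B6.2d2 mice carry a transgenic, MOG-specific T cell receptor, so 3 of the 4 groups derive from transgenic cells and the immunised group does not. Both CNS groups were taken at the peak of disease. Rag1-/- hosts lack T and B cells of their own but keep innate immune cells, so that the transferred group has no host T cells, whereas the immunised group holds whatever CD4+ T cells had reached the CNS. The age of the mice, the culture cytokines, the sort and its purity are not given in the sources used here.

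Levels are log2 processed signals minus the 75th percentile of all probes on that array, so that 0 is the level of that percentile. Between 57.0% and 64.8% of probes were well above background, and the lowest level well above background was −5.95 to −5.17 on the 12 arrays. With 3 arrays per group, this number limits the precision. The 13 T cell core genes, among them Cd3e, Cd4 and Lck, were well above background on every array. Markers of other cells were also present. The summed level (on the linear scale) of 13 macrophage and monocyte genes was 419 to 936 in the immunised group, 579 to 870 in the transferred group, 19.4 to 30.4 in culture and 24.2 to 98.0 in naive cells, with C1qa and C1qc not well above background on any cultured array. Itgam made up most of that sum in culture and naive cells. Its means were 4.16, 3.28, 4.24 and 5.54 in the immunised, transferred, cultured and naive groups. Unlike the other genes of the list, Itgam was called lower than in naive cells in the immunised and transferred groups (limma adjusted p = 0.0301 and 0.00252). The summed level of 10 neutrophil genes was 554 to 698 in the immunised group, 96.7 to 261 in the transferred group, 89.9 to 104 in culture and 108 to 223 in naive cells. Most of this sum in culture and naive cells was Csf3r. Its means were 6.13, 6.32, 6.39 and 7.11 in the immunised, transferred, cultured and naive groups. Of the 10 genes, 8 were higher and 1 lower in transferred than in naive cells (limma adjusted p under 0.05), against 21.2% and 26.5% of all genes. All 10 were well above background on all 3 immunised arrays, while 3 of them were not well above background on any cultured array and 5 not on any naive array. Retnlg and Ltf passed the filter through the CNS groups alone, so their calls are not independent of the filter. The mean level of the T cell core was 4.66, 5.10 and 4.44 in the immunised group, 4.43, 4.35 and 3.80 in the transferred group, 5.06, 5.09 and 4.74 in culture and 5.19, 5.07 and 5.06 in naive cells. In such bulk samples, fewer cells of a type and less RNA per cell cannot be told apart. Replicate 3 of the cultured cells had the lowest level of all 5 genes within its group, and results that depend on it are given with and without it. Each group had a fixed position on the slides, so position and group cannot be told apart.

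Il17a and Il17f lie next to each other, with 0 annotated genes starting between them on chromosome 1 of GRCm38.p6, and are transcribed in opposite directions. The Il17a probe lies at chr1:20724404-20724463 (mm9, + strand), the Il17ra probe at chr6:120432880-120432939 and the Il17rc probe at chr6:113433073-113433132, as the array files give them. Whether these lie in coding exons or UTRs was not analysed here. The Il17f and Il22 probes are shown because what they read bears on the values below. The Il17f probe covers 60 bases spread over 1346 bases of the genome (chr1:20768074-20769419, mm9, − strand), so its sequence is not continuous in the genome. The Il22 probe (chr10:117642873-117642932, mm9, + strand) lists transcripts of both Il22 and its near-identical copy Iltifb, and the RNAs of these genes cannot be told apart by it.
Il17f probe: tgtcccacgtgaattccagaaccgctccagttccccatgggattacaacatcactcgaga
Il22 probe: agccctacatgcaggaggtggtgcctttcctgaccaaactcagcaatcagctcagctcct

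The 250 bases before the start of Il17a and Il17f are shown because these neighbours, although both high in cultured Th17 cells, differed by unequal amounts in the CNS groups (below). They are RefSeq sequences of GRCm38.p6, printed 5′ to 3′ on the gene's strand, at chr1:20730655-20730904 (+ strand) for Il17a and chr1:20784271-20784520 (− strand) for Il17f. Capitals mark AGGTCA or its reverse complement TGACCT, a half-site bound by many nuclear receptors.
Il17a: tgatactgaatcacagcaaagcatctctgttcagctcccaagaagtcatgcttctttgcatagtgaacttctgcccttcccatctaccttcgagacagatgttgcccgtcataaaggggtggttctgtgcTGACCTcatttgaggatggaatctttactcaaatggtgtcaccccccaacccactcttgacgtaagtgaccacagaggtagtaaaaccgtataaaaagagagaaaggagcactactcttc
Il17f: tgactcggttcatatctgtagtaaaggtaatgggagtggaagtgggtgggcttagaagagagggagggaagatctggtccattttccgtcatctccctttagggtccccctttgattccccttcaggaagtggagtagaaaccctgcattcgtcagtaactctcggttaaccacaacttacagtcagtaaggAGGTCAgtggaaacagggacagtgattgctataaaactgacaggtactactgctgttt
The match lies 120 bases before the start on the opposite strand in Il17a and 58 bases before the start on the gene's strand in Il17f. On either strand, AGGTCA was in 14.0% of 32851 promoter windows of the same length, among them 2 of the 4 genes with an entry (Il17a and Il17f). TGANTCA, an AP-1 motif, was in 6.75% of windows and in that of Il17a, and TTCNNNGAA, a STAT motif, in 7.02% of windows and in 0 of the 4. These are matches of letters only, and binding was not measured.

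Il17a, the cytokine by which Th17 cells are named, was high in all 3 groups of differentiated cells and near background in naive cells. Its level was 2.99, 4.79 and 2.70 on the immunised arrays, 1.92, 1.86 and 1.68 on the transferred arrays, 5.46, 5.55 and 2.41 on the cultured arrays and −4.88, −6.19 and −5.83 on the naive arrays. Every array of the 3 differentiated groups lay above every naive array, and 2 of the 3 naive arrays were not well above background. The group means were 3.50 ± 1.13 (SD, n = 3) in the immunised group, 1.82 ± 0.13 in the transferred group, 4.47 ± 1.78 in culture and −5.63 ± 0.68 in naive cells. The transferred arrays were close together, while the range was 3.13 in culture, with replicate 3 lowest, and 2.09 in the immunised group.

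Against naive cells, Il17a was higher by 9.13 ± 0.80 log2 units in the immunised group (SE of the limma fit, adjusted p = 1.14e-05), by 7.45 ± 0.80 in the transferred group (limma adjusted p = 4.36e-05) and by 10.10 ± 0.80 in culture (limma adjusted p = 8.13e-06). With every level raised to the lowest level well above background on its array, these differences came to 501-fold, 157-fold and 984-fold. Il17a was lower in the transferred group than in culture by −2.65 ± 0.80 (limma adjusted p = 0.031), with differences of −3.53, −3.69 and −0.74 within the 3 slides. This call was lost on leaving out any of several arrays. The limma adjusted p was 0.103 without cultured replicate 1, 0.0996 without cultured replicate 2 and 0.064 to 0.0844 without a transferred array, against 0.00156 without cultured replicate 3. Between the immunised group and culture the difference of −0.98 did not pass (95% CI −2.75 to 0.80, limma adjusted p = 0.375), but without cultured replicate 3 it was −2.0 (limma adjusted p = 0.0263). The immunised arrays all lay above the transferred arrays, by 1.68 on average (95% CI −0.10 to 3.45, limma adjusted p = 0.274), which did not pass. The order of the means was therefore culture, immunised, transferred and naive, with no call between culture and the immunised group or between the CNS groups.

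Il17f, the closest relative of Il17a, behaved alike in culture but was far lower in both CNS groups. Its level was −0.38, 0.20 and −1.55 on the immunised arrays, −2.64, −1.0 and −1.84 on the transferred arrays, 4.77, 6.50 and 3.46 on the cultured arrays and −3.37, −5.19 and −5.00 on the naive arrays. The CNS groups overlapped each other, lay below all cultured arrays and above all naive arrays. The means were −0.58 ± 0.89 (SD, n = 3) in the immunised group, −1.83 ± 0.82 in the transferred group, 4.91 ± 1.52 in culture and −4.52 ± 1.0 in naive cells.

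Il17f was lower than in culture by −5.49 ± 0.79 in the immunised group (limma adjusted p = 0.000543) and by −6.74 ± 0.79 in the transferred group (limma adjusted p = 0.00017). Within slides the falls ranged over −5.16, −6.31 and −5.01 for the immunised group, and −7.41, −7.50 and −5.30 for the transferred group. Against naive cells Il17f was higher by 3.94 in the immunised group (limma adjusted p = 0.00222), 2.69 in the transferred group (limma adjusted p = 0.0165) and 9.43 in culture (limma adjusted p = 1.13e-05). The call for the transferred group ended under another background correction (normexp), at 1.48 and a limma adjusted p of 0.0922, and without naive replicate 2 or 3 or transferred replicate 2 (limma adjusted p 0.0559 to 0.0644). The CNS groups differed by 1.25 (immunised minus transferred, 95% CI −0.50 to 3.0, limma adjusted p = 0.409).

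Il22 had non-overlapping levels in the CNS groups. Its level was −0.30, 0.36 and 0.03 on the immunised arrays, −4.61, −4.82 and −4.37 on the transferred arrays, 1.67, 4.17 and −2.04 on the cultured arrays and −3.50, −3.76 and −4.16 on the naive arrays. Each immunised array lay above all naive arrays, and each transferred array lay below them. Relative to the T cell core, the transferred arrays overlapped the naive ones, at −9.04, −9.17 and −8.17 in the transferred group against −8.69, −8.83 and −9.22 in naive cells. The means were 0.03 ± 0.33 (SD, n = 3) in the immunised group, −4.60 ± 0.23 in the transferred group, 1.27 ± 3.12 in culture and −3.81 ± 0.33 in naive cells. Among the 5 genes the spread over cultured arrays was widest for Il22, against a median SD of 0.350 over all genes tested in that group.

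Against naive cells Il22 rose by 3.84 ± 1.14 in the immunised group (limma adjusted p = 0.0175) and by 5.07 ± 1.14 in culture (limma adjusted p = 0.00513), and differed by −0.79 ± 1.14 in the transferred group (limma adjusted p = 0.601). The call in the immunised group ended without naive replicate 3, at 3.66 and a limma adjusted p of 0.0519, and relative to the T cell core the sign in the transferred group turned, to 0.12 (limma adjusted p = 0.926). Il22 fell by 5.86 in transferred cells relative to culture (limma adjusted p = 0.00368), and by 4.39 to 7.52 over all alternatives. The immunised group was 4.63 above the transferred group (95% CI 2.11 to 7.14), and by 4.31, 5.18 and 4.39 within the slides. This difference had an unadjusted p of 0.00203 and a limma adjusted p of 0.0572, over the threshold. The limma fit shares 1 spread per gene among the 4 groups, including the wide one in culture. With only the 6 CNS arrays in the fit, or without cultured replicate 3, the same 4.63 had a limma adjusted p of 0.000791 or 0.0016. Between the immunised group and culture the difference of −1.24 (95% CI −3.75 to 1.28, limma adjusted p = 0.429) depended on single arrays. It was −2.89 without cultured replicate 3 (limma adjusted p = 0.00517) and 0.22 without cultured replicate 2.

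A second probe of the Il22 and Iltifb pair, named Iltifb in the files, lists transcripts of both genes as well. It was well above background on all 3 immunised arrays, at −4.18, −2.86 and −4.39, on none of the transferred or naive arrays, and on cultured replicates 1 and 2 at −2.57 and 0.04. The immunised group was therefore at least 3.49-fold higher than the transferred group by this probe (limma adjusted p = 0.157), with means of −3.81 and −7.45. This probe passed the filter through the immunised group alone, so the difference is not independent of the filter. The third probe, which lists Iltifb alone, was well above background only on cultured replicate 2, at −4.80. Cells other than CD4+ T cells, among them γδ T cells and innate lymphoid cells, also make IL-17A and IL-22. Of 8 markers of these cells, 5 were tested, and 1 of the 5 was called higher and 0 lower in the immunised than in the transferred group. Of all genes, 1.85% were called higher and 1.37% lower there. The marker called was Cd163l1, a scavenger receptor of IL-17-producing γδ T cells, which was 2.98 higher (limma adjusted p = 0.0252). Its mean was highest in naive cells, with means of 1.37 ± 0.65, −1.61 ± 0.57, 0.56 ± 0.59 and 2.80 ± 1.25 in the immunised, transferred, cultured and naive groups (SD, n = 3). Among markers with no call there, Kit, a receptor of innate lymphoid cells, was 1.79 higher in the immunised group (limma adjusted p = 0.242), and Zbtb16, a transcription factor of innate-like lymphocytes, differed by −1.30 (limma adjusted p = 0.496) and Arg1, an arginase also made by macrophages, by −1.44 (limma adjusted p = 0.343). Sox13, a γδ T cell transcription factor gene, had means of −0.95 ± 0.19, −0.91 ± 0.20, −0.53 ± 0.31 and −1.10 ± 0.56 in the same groups. The summed level of the 6 markers on the array was 20.5 to 66.0 in the immunised group, 67.6 to 194 in the transferred group, 2.45 to 3.53 in culture and 4.02 to 18.1 in naive cells. In both CNS groups most of this sum was Arg1, at means of 5.25 in the immunised and 6.69 in the transferred group. The sum there therefore says little about the other markers. Ncr1 was well above background on 2 transferred arrays and no other. The part of such cells in the Il17a and Il22 levels was not tested.

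**Figure D1:**
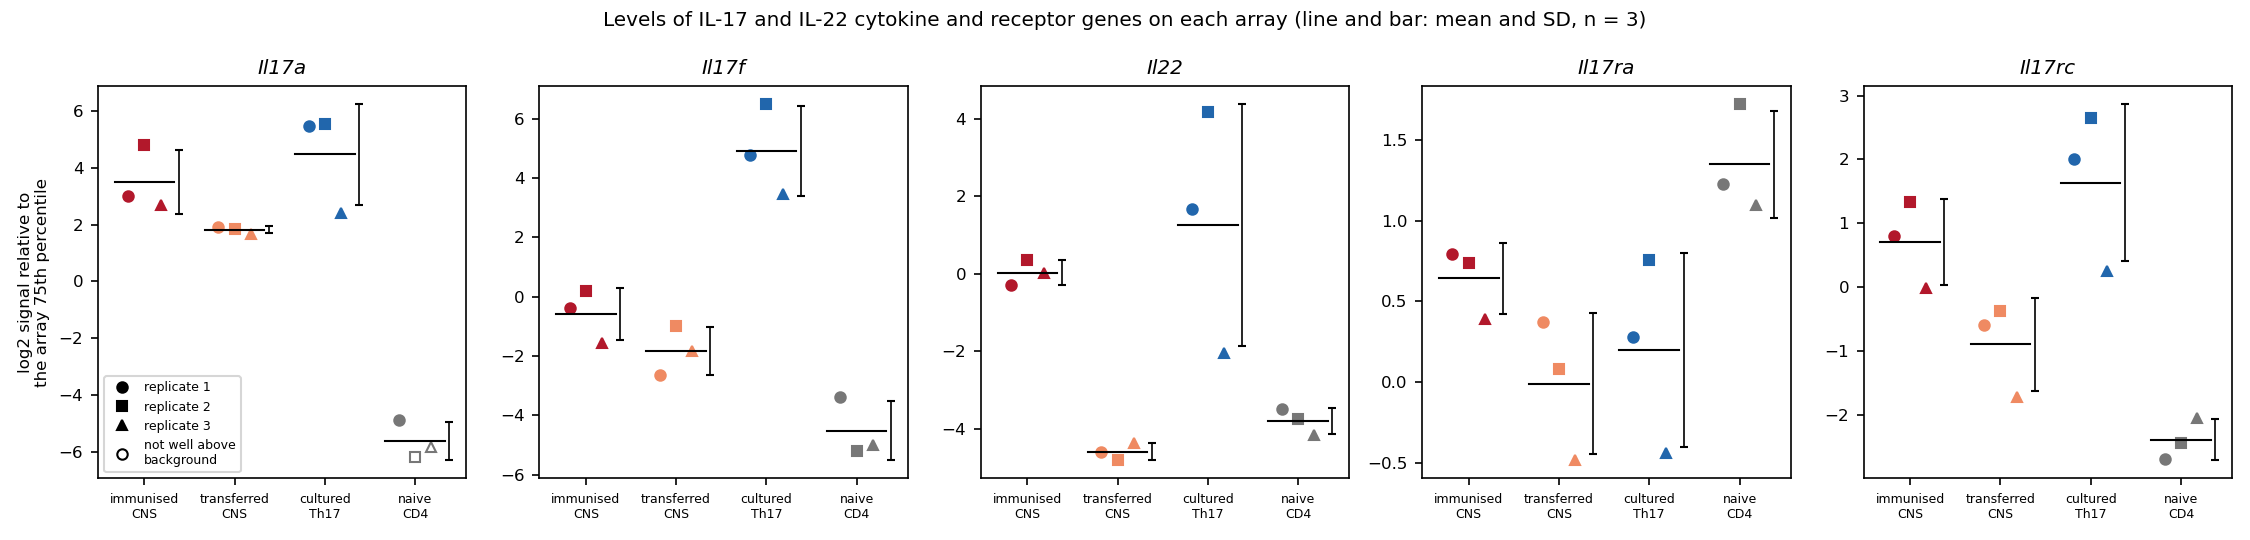
Level of each gene on each of 12 arrays (y axis, log2 signal relative to the array's 75th percentile, a separate scale for each gene) by group (x axis). Symbols are replicates, open symbols are not well above background, and lines with bars are the mean and SD of 3 arrays. Il17a is high in all 3 differentiated groups, Il17f highest in culture, Il22 split between the CNS groups, and Il17ra highest in naive cells.

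Il17ra, the shared signalling chain, moved the other way and little. Its level was 0.79, 0.74 and 0.39 on the immunised arrays, 0.37, 0.08 and −0.49 on the transferred arrays, 0.28, 0.76 and −0.44 on the cultured arrays and 1.23, 1.72 and 1.10 on the naive arrays. All 9 differentiated arrays lay below all naive arrays. Against naive cells Il17ra fell by 1.36 ± 0.32 in the transferred group (limma adjusted p = 0.00556) and by 1.15 ± 0.32 in culture (limma adjusted p = 0.0162), and its difference of −0.71 ± 0.32 in the immunised group did not pass (limma adjusted p = 0.0925). The T cell core was itself lower in the transferred group, and relative to it the difference of Il17ra from naive cells was −0.45 (limma adjusted p = 0.201). In culture the limma adjusted p became 0.0531 with only the 6 arrays compared and 0.0596 without naive replicate 2. The 3 differentiated groups did not differ from each other by the test. The immunised group was 0.44 above culture (limma adjusted p = 0.316) and 0.65 above the transferred group (limma adjusted p = 0.291), and the transferred group was −0.21 from culture (95% CI −0.92 to 0.50, limma adjusted p = 0.678).

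Il17rc, the chain that restricts responses to IL-17A and IL-17F, was low in naive cells and high in differentiated cells. Its level was 0.80, 1.33 and −0.02 on the immunised arrays, −0.58, −0.37 and −1.72 on the transferred arrays, 2.01, 2.64 and 0.26 on the cultured arrays and −2.69, −2.43 and −2.04 on the naive arrays. The naive arrays were below all others, and the immunised arrays were above all transferred arrays. Against naive cells it was higher by 3.09 ± 0.59 in the immunised group (limma adjusted p = 0.00165) and by 4.02 ± 0.59 in culture (limma adjusted p = 0.00039). The difference of 1.49 ± 0.59 in the transferred group was just over the threshold (limma adjusted p = 0.0579), and relative to the T cell core it was 2.41 (limma adjusted p = 0.00107). The transferred group was lower than culture by −2.53 (limma adjusted p = 0.00979), with −2.59, −3.02 and −1.98 within slides. The immunised group differed from culture by −0.93 (limma adjusted p = 0.25), or −1.62 without cultured replicate 3 (limma adjusted p = 0.0295), and from the transferred group by 1.60 (limma adjusted p = 0.166). The other Il17rc probe had differences of the same direction in all 6 comparisons, from −2.47 for the transferred group against culture to 3.85 for culture against naive cells.

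**Figure D2:**
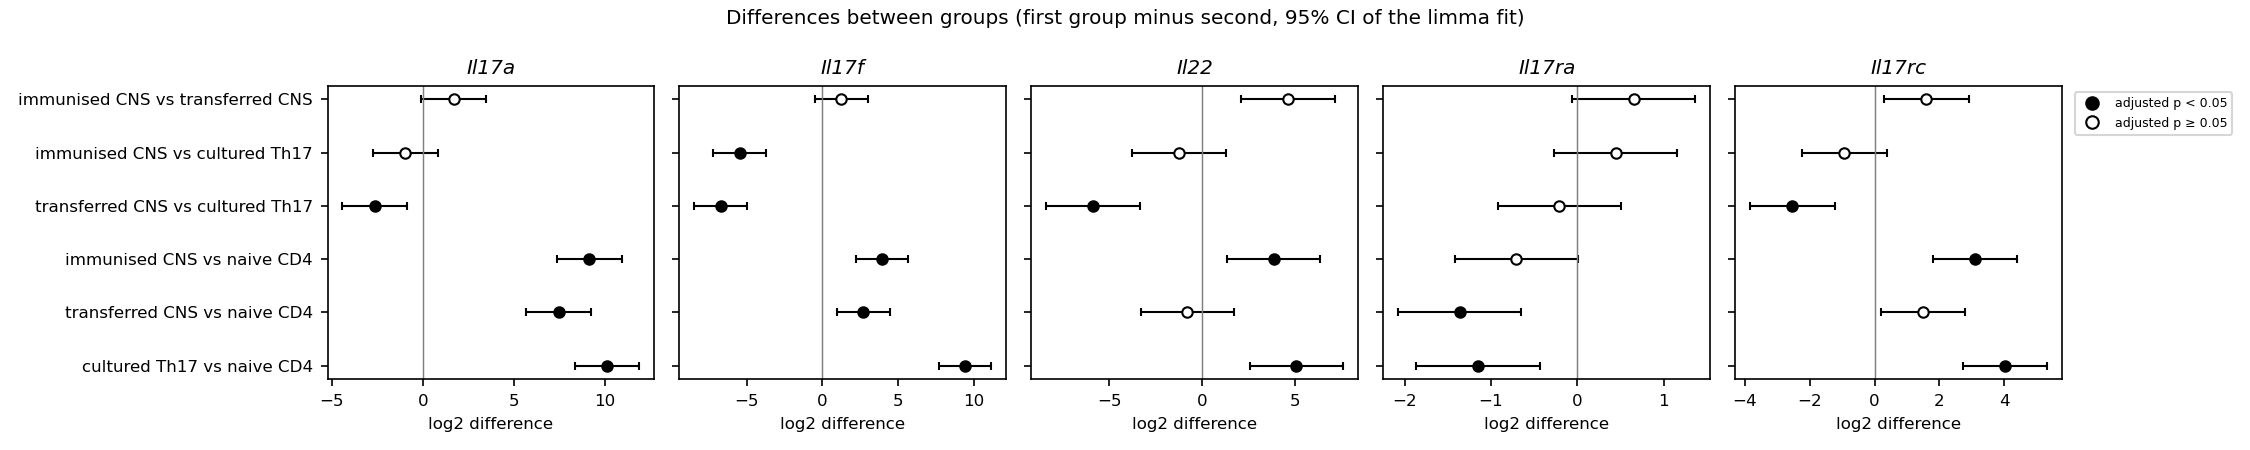
Log2 difference of each gene (x axis) in each of 6 comparisons (rows, first group minus second), with the 95% CI of the limma fit. Filled points have an adjusted p under 0.05. Il17f has its low values in both CNS groups against culture, and 0 of the 5 points are filled for the immunised against the transferred group.

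Counted over the 5 genes, 4 were called higher and 1 lower in culture against naive cells, where limma called 40.1% of the 18631 genes (19.7% higher and 20.4% lower). In the transferred group against naive cells, 2 were called higher and 1 lower, where 47.7% of genes were called (21.2% higher and 26.5% lower). In the immunised group against naive cells 4 were called, all higher, where 48.4% of genes were called (20.6% higher and 27.7% lower). Against culture, 4 of 5 were called lower in the transferred group, where 28.3% of genes were called and 15.5% were lower, and 1 of 5 (Il17f) was called lower in the immunised group, where 31.5% were called and 17.8% were lower. Between the immunised and the transferred group, 0 of 5 were called where 3.22% of genes were called, and 4 of 5 (all but Il17f) did not overlap, which also held for 33.8% of genes. There, 2 of 5 (Il22 and Il17rc) had an unadjusted p under 0.05, as did 20% of genes. The comparisons against naive cells share the naive arrays, and those against culture share the cultured arrays. Scaling to the T cell core changed the balance of calls over all genes in each comparison. Relative to the core, 47.1% of genes were higher and 6.2% lower in the transferred group against naive cells, where 3 of the 5 genes were called higher and 0 lower. In the transferred group against culture these shares were 33.9% and 3.34%, with 4 of 5 still lower and 0 higher. They were 22.1% and 11.3% for the immunised group against naive cells, 16.6% and 11% for culture against naive cells, 13.1% and 6.73% for the immunised group against culture, and 1.19% and 6.42% between the CNS groups, where 1 of 5 (Il22) was then called higher.

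Because a fixed offset between the probes of a pair and the scaling of an array cancel, the difference between a pair of genes on the same array shows whether they changed by unequal amounts. Il17a minus Il17f was 3.38, 4.60 and 4.25 on the immunised arrays, 4.56, 2.86 and 3.52 on the transferred arrays, and 0.68, −0.96 and −1.05 on the cultured arrays. All 6 CNS arrays lay above all 3 cultured arrays. The mean was 3.86 ± 0.71 (SD, n = 6) over both CNS groups and −0.44 ± 0.97 (SD, n = 3) in culture, a difference of 4.30 (exact two-sided permutation p = 0.0238, the smallest possible here, adjusted p = 0.0476 over 4 pairs). Il17f was thus lower in the CNS than in culture by more than Il17a was, in log2 units. The separate comparisons had differences of 4.52 for the immunised and 4.09 for the transferred group against culture (exact permutation p = 0.1, the smallest that 3 against 3 arrays allow). The CNS groups differed from each other by 0.43 (exact permutation p = 0.6).

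Il17ra minus Il17rc was also higher in the CNS, at 0.41 ± 0.66 (SD, n = 6) against −1.44 ± 0.65 (SD, n = 3) in culture, a difference of 1.85 (exact two-sided permutation p = 0.0238, adjusted p = 0.0476). The difference of Il17a minus Il22 was 1.74 (exact permutation adjusted p = 0.214) and that of Il17f minus Il22 was −2.57 (exact permutation adjusted p = 0.19). Pooling the CNS groups hid a split for the pairs with Il22 and for the receptor pair. Il17a minus Il22 was 3.47 ± 0.89 in the immunised group and 6.42 ± 0.33 in the transferred group (SD, n = 3 each), with no overlap. Il17f minus Il22 was −0.61 ± 0.84 in the immunised group and 2.77 ± 0.95 in the transferred group (SD, n = 3 each), again with no overlap. Il17ra minus Il17rc was −0.06 ± 0.50 in the immunised group and 0.88 ± 0.40 in the transferred group (SD, n = 3 each), with no overlap either. Each of these splits had an exact permutation p of 0.1, the smallest possible. The calls for Il17a minus Il17f and Il17ra minus Il17rc rest on all 9 arrays. Without any single array, both had an exact permutation adjusted p of 0.0714 to 0.143. They also rest on each other, since the smallest possible p passes the adjustment over 4 pairs only if more than a single pair reaches it.

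**Figure D3:**
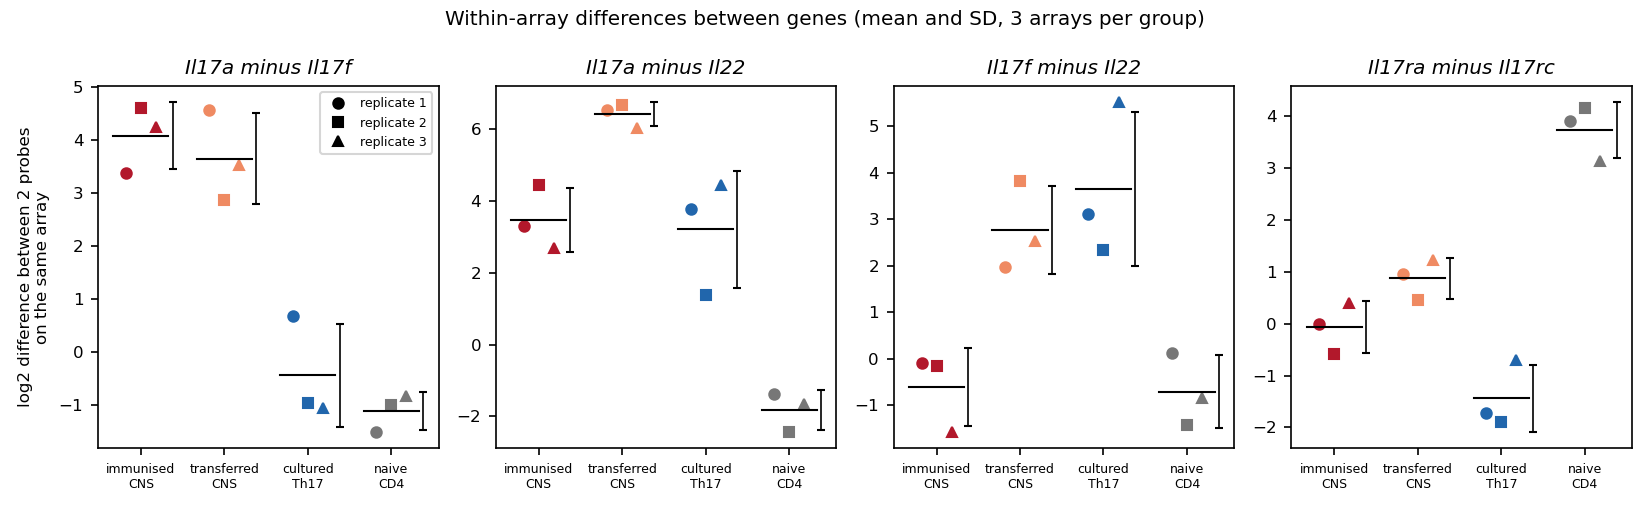
Difference between 2 genes on the same array (y axis, log2) by group (x axis), for 4 pairs. Symbols are replicates, and lines with bars are the mean and SD of 3 arrays. Il17a minus Il17f is 2.86 or more on all CNS arrays and 0.68 or less on all cultured arrays.

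For each gene, the genes of most similar profile were found by the root mean square (RMS) difference of mean-centred log2 levels over the 12 arrays. Il17rc was closest to Il17re, the receptor chain for IL-17C, at an RMS difference of 0.44, followed by Ttbk1 at 0.46 and Fut7, a fucosyltransferase that makes selectin ligands, at 0.56. Il17re lies beside Il17rc on chromosome 6 of GRCm38.p6, with 0 protein-coding genes starting between them. Its level was 1.99, 2.45 and 1.42 on the immunised arrays, 0.10, 0.72 and −0.57 on the transferred arrays, 3.78, 4.0 and 1.46 on the cultured arrays and −2.36, −1.43 and −1.90 on the naive arrays. It was called higher than in naive cells in all 3 groups, by 3.85, 1.98 and 4.98 in the immunised, transferred and cultured groups (limma adjusted p = 0.000584, 0.022 and 0.000131), and lower in the transferred group than in culture by −3.00 (limma adjusted p = 0.0051).

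Il22 was closest to Il23r, a chain of the IL-23 receptor, at 1.18. Il23r was −2.20, −1.18 and −2.55 on the immunised arrays, −4.02, −2.85 and −5.65 on the transferred arrays, 1.95, 3.24 and −2.18 on the cultured arrays and −4.70, −3.97 and −5.19 on the naive arrays. Cultured replicate 3 was far below the other cultured arrays for both genes, while the transferred arrays overlapped the naive ones for Il23r and lay below them for Il22. Iltifb, whose probe can read Il22, was at 1.33. Il17a was closest to Il1r2, a decoy receptor for IL-1, at 1.27 and to Lilr4b, an immunoglobulin-like receptor, at 1.31, and Il17f to Slc4a11, a membrane transporter, at 1.21. Il17ra had the closest neighbours, Trak2 and Rnf123 at 0.19 and the kinase Jak1 at 0.22. A gene with a small range over the groups, such as Il17ra, can have small differences to many genes. Among the 5 genes themselves the closest pair was Il22 and Il17rc at 1.61, against 2.37 for Il17a and Il17f and 4.40 for Il17a and Il17ra.

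**Figure D4:**
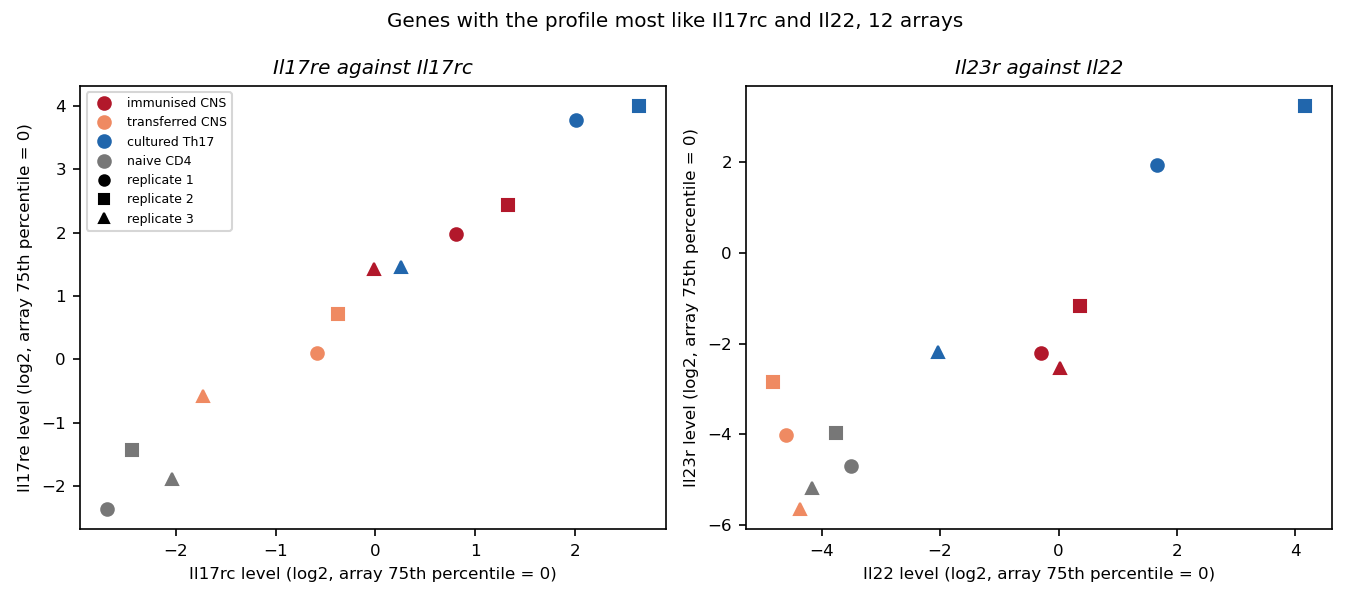
Level of Il17re against Il17rc (left) and of Il23r against Il22 (right) on 12 arrays, both axes log2 relative to the array's 75th percentile. Colours are groups and symbols replicates. The points of Il17re and Il17rc follow one line from the naive arrays, at the low end, to cultured replicates 1 and 2.

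Of the other IL-17 family ligands, Il17b, Il17c and Il25 were not well above background on any array, and Il17d was low in all groups, at means of −2.38, −1.79, −1.93 and −2.51 in the immunised, transferred, cultured and naive groups. Il17d was called higher than in naive cells in the transferred group (0.72, limma adjusted p = 0.00296) and in culture (0.58, limma adjusted p = 0.0118). Il17rb, the receptor chain for IL-25, was called lower than in naive cells in all 3 groups, and between the CNS groups it was 1.78 higher in the immunised group (limma adjusted p = 0.136). It was well above background on all naive and immunised arrays and on no cultured array, and was at least 29.0-fold lower in culture than in naive cells (limma adjusted p = 1.83e-05). Il17rb also fell by 3.58 in the immunised group (limma adjusted p = 0.000807) and differed by −5.37 in the transferred group, where 1 of 3 arrays was well above background (limma adjusted p = 5.96e-05).

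The transcription factors and receptors known to induce IL-17 or IL-22 in T cells rose more often than they fell against naive cells. Of 14 genes listed and tested, 10 rose and 2 fell in the immunised group, where 20.6% of all genes rose and 27.7% fell. In the transferred group 7 rose and 3 fell, where 21.2% of all genes rose and 26.5% fell. Relative to the T cell core 10 rose and 0 fell there, where 47.1% of all genes rose and 6.2% fell. In culture 8 rose and 3 fell, where 19.7% of all genes rose and 20.4% fell. The list medians were 2.05, 1.27 and 1.91, against medians over all genes of −0.19, −0.12 and −0.08. Il1r1, the IL-1 receptor, was higher by 4.58, 2.64 and 6.15 in the immunised, transferred and cultured groups (limma adjusted p = 0.00299, 0.0441 and 0.000632). Il23r was higher by 2.64 in the immunised group (limma adjusted p = 0.0873) and 0.45 in the transferred group (limma adjusted p = 0.785), which did not pass, and by 5.62 in culture (limma adjusted p = 0.0036), which did. The falls were those of Il6ra and Il6st, both chains of the IL-6 receptor, in every group, of Tgfbr2 in the transferred group and of Nfkbiz, a nuclear IκB protein, in culture.

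Against culture, 5 of 14 inducing genes rose and 2 fell in the immunised group, where 13.7% of all genes rose and 17.8% fell. In the transferred group 5 rose and 4 fell, where 12.8% of all genes rose and 15.5% fell. Relative to the T cell core the counts were 4 and 0 in the immunised group, where 13.1% of all genes rose and 6.73% fell. They were 6 and 3 in the transferred group, where 33.9% of all genes rose and 3.34% fell. Nfkbiz, which also takes part in IL-17 receptor signalling, was higher by 4.24 in the immunised group (limma adjusted p = 1.32e-05) and by 3.16 in the transferred group (limma adjusted p = 9.73e-05). Between the CNS groups 1 of 14 was called, Rora, a nuclear receptor gene, which was 1.72 higher in the immunised group (limma adjusted p = 0.0299), where 1.85% of all genes were called higher. Relative to the T cell core, 0 of 14 were called higher and 1 lower, where 1.19% of all genes were higher and 6.42% lower. For Il23r the difference between the CNS groups, without that scaling, was 2.20 (limma adjusted p = 0.331).

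**Figure D5:**
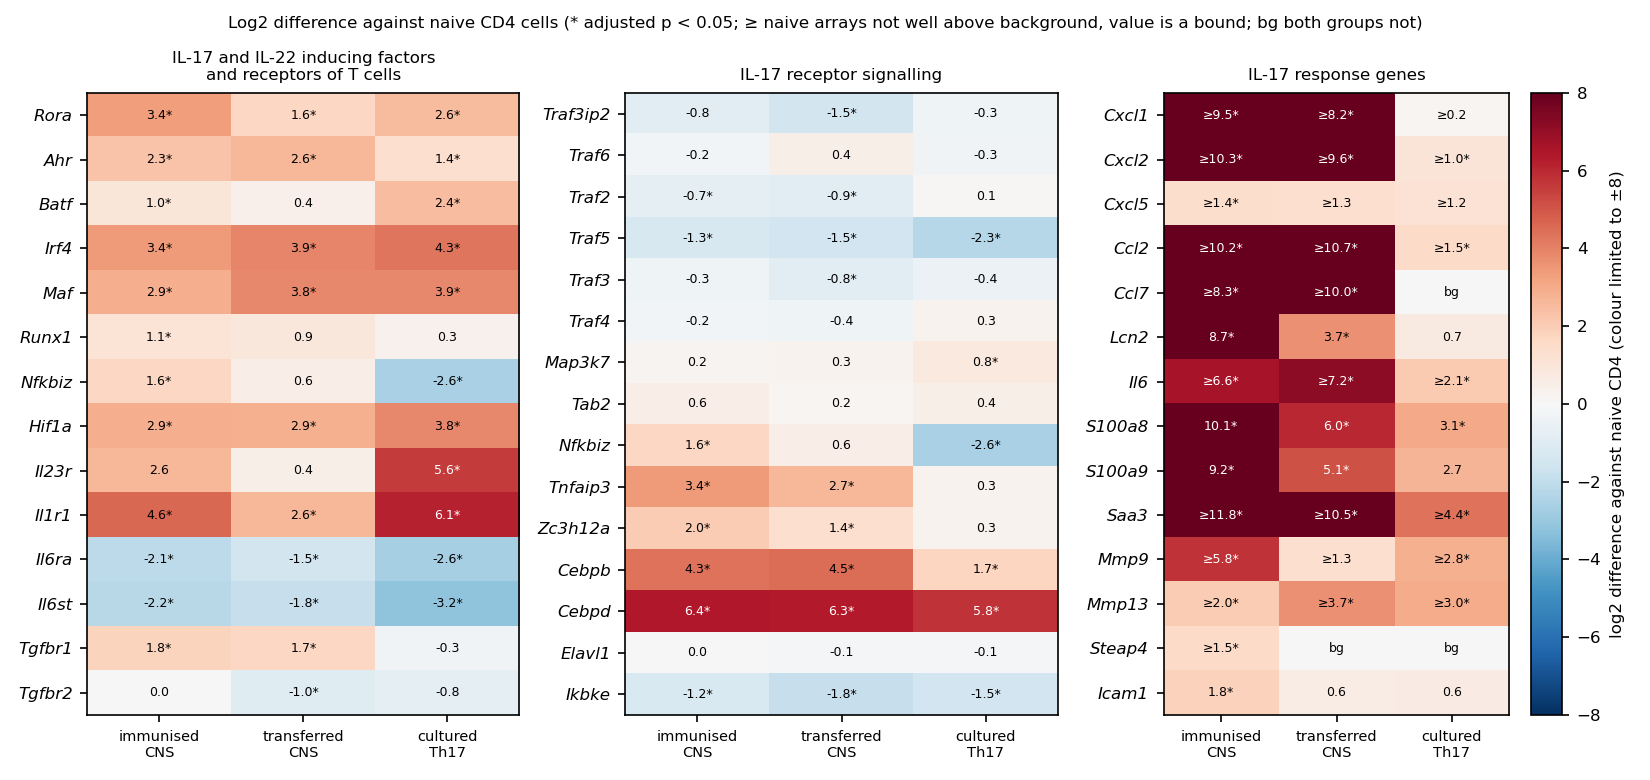
Log2 difference from naive cells (colour and printed value) in the immunised, transferred and cultured groups (columns) for tested genes of 3 lists (rows). Stars mark a limma adjusted p under 0.05, ≥ a bound where no naive array was well above background, and bg cells where neither group was. Irf4, Maf, Hif1a and Il1r1 are among the inducing factors called higher in all 3 groups, signalling genes include rises and falls, and chemokine genes are high in the CNS groups.

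Of 15 signalling genes below the IL-17 receptor, 5 rose and 3 fell in the immunised group against naive cells, 4 rose and 5 fell in the transferred group, and 3 rose and 3 fell in culture. Over all genes 48.4%, 47.7% and 40.1% were called in these comparisons, so the share of signalling genes called was near the background. Relative to the T cell core, 8 rose and 1 fell in the transferred group, where 47.1% of all genes rose and 6.2% fell. Traf3ip2, the adaptor Act1 that binds the receptor chains, fell in the transferred group by 1.5 (limma adjusted p = 0.00636), and its differences were −0.84 in the immunised group (limma adjusted p = 0.0788) and −0.34 in culture (limma adjusted p = 0.485). Traf5, an adaptor downstream of Act1, fell in all 3 groups, by 1.30, 1.54 and 2.30. Cebpd, a transcription factor induced by IL-17, rose in all 3, by 6.39, 6.33 and 5.78 (limma adjusted p = 1.11e-05, 1.2e-05 and 2.86e-05). The remaining calls are those of the plot of pathway genes.

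Genes that respond to IL-17 in target cells were higher in both CNS groups. Of 17 listed, 14 were tested, and 14 rose in the immunised group, 10 in the transferred group and 7 in culture against naive cells, with 0 falls. Over all genes 20.6%, 21.2% and 19.7% rose in these comparisons. Where a gene was at background in a group, its bound was used, and the list medians were 8.50, 5.57 and 1.36. The chemokine Cxcl1 was at least 736-fold higher in the immunised group and at least 296-fold higher in the transferred group than in naive cells, where no array was well above background (limma adjusted p = 1.02e-06 and 2.01e-06). Saa3, an acute-phase protein gene, was at least 3519-fold and 1401-fold higher in the same groups. Between the CNS groups 3 of 14 were called, all higher in the immunised group, as were 1.85% of all genes. They were Lcn2, a siderophore-binding protein gene, by 5.03 (limma adjusted p = 0.0207), S100a8, a calprotectin subunit, by 4.04 (limma adjusted p = 0.0366), and Steap4, a metalloreductase, by at least 2.93-fold (limma adjusted p = 2.53e-05). Steap4, Cxcl5 and Mmp9 passed the filter through the immunised group alone, and Cxcl1, Cxcl2, Ccl2 and Ccl7 through the CNS groups alone. Il6, Saa3 and Mmp13 passed through all differentiated groups but not through naive cells. The rises of all these genes in the groups through which they passed, counted above, are therefore not independent of the filter. Nor could a gene at background in naive cells be seen to fall. Lcn2, S100a8, S100a9 and Icam1 were well above background on all arrays. Most of the response genes are genes of myeloid or stromal cells, and S100a8 and S100a9 are also in the neutrophil list, of which 6 of 10 genes were called higher in the immunised than in the transferred group. Of these 6, Ngp passed the filter through the immunised group alone, so its call is not independent of the filter. Of 13 macrophage and monocyte genes, 12 were called higher in each CNS group than in culture, where 13.7% of all genes were higher in the immunised and 12.8% in the transferred group. Lyz2, C1qa, C1qc and Fcgr1, among those called, passed the filter through the CNS groups alone, so their calls are not independent of the filter. The part of myeloid or stromal cells in the response genes was not tested.

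Of the other IL-10 family ligands, Il10 rose against naive cells in all 3 groups, by 5.18, 4.55 and 3.57 in the immunised, transferred and cultured groups (limma adjusted p = 0.00296, 0.00601 and 0.0244), with 1 of 3 naive arrays well above background. Il20 was well above background on all 3 cultured arrays, on no CNS array and on 2 naive arrays. Relative to culture it was at least 3.34-fold lower in the immunised group (limma adjusted p = 0.000891) and at least 3.51-fold lower in the transferred group (limma adjusted p = 0.00544). Il20 passed the filter through the cultured group alone, so these differences are not independent of the filter. Of the IL-22 receptor and its signalling genes, 7 of 8 were tested, and 3 rose and 1 fell in the immunised group, 3 rose and 3 fell in the transferred group, and 1 rose and 2 fell in culture against naive cells. Over all genes 48.4%, 47.7% and 40.1% were called. Relative to the T cell core 3 of the 7 rose and 0 fell in the transferred group, where 47.1% of all genes rose and 6.2% fell. Il10rb, the shared chain of the IL-22 and IL-10 receptors, was higher in the immunised group by 1.17 (limma adjusted p = 0.00567) and in the transferred group by 1.53 (limma adjusted p = 0.00117), and differed by −0.08 in culture (limma adjusted p = 0.849). Il22ra1, the other chain of the IL-22 receptor, had no call in any of the 6 comparisons and was near background, with means of −5.02, −5.48, −4.70 and −5.28 in the immunised, transferred, cultured and naive groups. Between the CNS groups Tyk2, a kinase that binds IL-10RB, was 0.91 higher in the immunised group (limma adjusted p = 0.0125).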

How the data were processed

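RNA of 12 samples was hybridised to 1-colour Agilent arrays, 1 array per sample. Per the file headers, the deposited intensity values come from version 10.7.3.1 of Agilent Feature Extraction (protocol GE1_107_Sep09), with probe coordinates on mm9. A deposited matrix of intensity values has an unstated normalization and was an alternative only. It is on a linear scale, its median per array was 50.4 to 51.2, and its centring is unknown.

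Of 43020 non-control spots per array, 120 to 180 that the scanner software marked as outliers were not used, and 0 spots were saturated. The 75th percentile of the signal was 656 to 940. Repeated spots were averaged, which gave 39405 probes, of which 27223 were named by accession, 3573 by current symbol, 565 by synonym and 8044 by the name in the file. log2 signals minus the array's 75th percentile were computed from the deposited intensities and fitted over 12 arrays and 18631 genes with limma 3.58.1 in R 4.3.3 (2.485 prior and 8 residual degrees of freedom). Adjusted p-values of limma are two-sided Benjamini-Hochberg values over all genes, called under 0.05. Within-array differences between genes had an exact permutation test (scipy 1.17.1), adjusted over 4 pairs. Promoters are RefSeq's of GRCm38.p6.

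Members, gene lists and tests were chosen with earlier results of these data known. Named genes are the 5 members, called members of each list and the genes closest in profile (genes named without a call, such as Il22ra1, Sox13, Kit, Zbtb16, Ncr1, Il17b, Il17c and Il25, were chosen after their values were seen), and 1 gene of the list of inducing factors and 1 neighbour in profile are not reported here. Replicate numbers mark slides, 1 array per group on each. Deviations from the group means of same-numbered arrays correlated at −0.20 to 0.20, so the numbers were not taken as pairs. The fit was tested on simulated data, but no outcome is given here and no result rests on it. Alternatives were other normalizations, filters, probes and thresholds, slide as a block and leaving out each array. Whether replicates were separate animals or pools is not stated beyond 3 independent experiments.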

Additional observations from a re-analysis of the deposited data

Results flagged for a closer look

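Il22 stood out because its arrays in the CNS groups lay on opposite sides of the naive arrays. Every immunised array was above all naive arrays and every transferred array was below them, but the difference of −0.79 in the transferred group did not pass (limma adjusted p = 0.601), and relative to the T cell core it was 0.12 (limma adjusted p = 0.926), with arrays that overlapped the naive ones. The difference between the CNS groups (immunised minus transferred) was 4.63, with a limma adjusted p of 0.0572 in the fit over 12 arrays.

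A probe named Iltifb, which lists transcripts of Iltifb and of its near-identical copy Il22, stood out because it is outside the 5 genes and gave a signal where naive cells gave none. It was well above background on 3 of 3 immunised arrays, with a mean level of −3.81, and on 0 of 3 transferred and 0 of 3 naive arrays. Dixon's test for outlying samples needs at least 4 samples and was not applied to groups of 3.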

How the results depend on the processing

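Over up to 23 alternatives per result, the calls for Il17a, Il17f and Il17rc in culture and in the immunised group against naive cells, for Il22 in culture against naive cells, and for Il17f, Il22 and Il17rc in the transferred group against culture kept their direction and their side of the threshold. So did the calls for Il17a in the transferred group against naive cells and for Il17f in the immunised group against culture, and the exceptions follow. Il17a was not tested when all 12 arrays had to be well above background. With normexp background correction the difference of Il17f between the transferred group and naive cells was 1.48 (limma adjusted p = 0.0922) and the within-array difference of Il17f minus Il22 between the CNS and culture was −3.00 (exact permutation adjusted p = 0.0317). With median scaling, Il17rc in the transferred group against naive cells stood at 1.49 (limma adjusted p = 0.0419) and Il22 in the immunised against the transferred group at 4.66 (limma adjusted p = 0.0443).

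Scaling to the T cell core shifts every gene by 0.91 in the transferred group against naive cells, 0.77 in the transferred group against culture and −0.54 in the immunised against the transferred group. Against naive cells the transferred group then had 0.12 for Il22 (reversed, limma adjusted p = 0.926), −0.45 for Il17ra (limma adjusted p = 0.201) and 2.41 for Il17rc (limma adjusted p = 0.00107). Il17ra in the transferred group against culture reversed to 0.56 (limma adjusted p = 0.135), and Il22 in the immunised against the transferred group was 4.09 (limma adjusted p = 0.0357). The genes called were 3690 for the immunised group against culture and 1417 between the CNS groups, against 5862 and 600. With no filter, Il17a in the transferred group against culture, at −2.65, had a limma adjusted p of 0.0511, and 371 genes were called between the CNS groups. With the filter on all 12 arrays the count was 367, and Il17rc in the transferred group against naive cells, at 1.49, had a limma adjusted p of 0.0495.

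Slide as a replicate block left all differences as they were, and brought under the threshold Il17rc in the transferred group against naive cells (1.49, limma adjusted p = 0.0253) and Il17ra in the immunised group against naive cells (−0.71, limma adjusted p = 0.027). The block changed no other call, and the numbers are not shown to pair the samples. With only the 6 arrays compared, Il17ra in culture against naive cells (−1.15, limma adjusted p = 0.0531) and Il17a in the transferred group against culture (−2.65, limma adjusted p = 0.0731) lost their calls. In the same fits Il22 (−0.79, limma adjusted p = 0.0302) and Il17rc (1.49, limma adjusted p = 0.0202) in the transferred group against naive cells, Il17ra in the immunised group against naive cells (−0.71, limma adjusted p = 0.0341) and Il22 in the immunised against the transferred group (4.63, limma adjusted p = 0.000791) were called, and 3313 genes were called in the transferred group against culture, against 5267. At a threshold of 0.01, 4710 genes were called in culture against naive cells, 2687 in the transferred group against culture, 3279 in the immunised group against culture and 185 between the CNS groups. Il17ra in culture (−1.15), Il17f in the transferred group (2.69) and Il22 in the immunised group (3.84) against naive cells, and Il17a in the transferred group against culture (−2.65), were then not called. With the mean of all probes of a gene, the within-array differences of Il17a minus Il17f (4.30) and Il17ra minus Il17rc (1.76) between the CNS and culture had an exact permutation adjusted p of 0.0952.

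Leaving out 1 array at a time, the values against naive cells ranged from −1.43 to −0.83 for Il17ra in culture, from 2.28 to 3.27 for Il17f and from 1.23 to 1.91 for Il17rc in the transferred group, and from 3.66 to 4.0 for Il22 and from −0.83 to −0.52 for Il17ra in the immunised group. Il22 in the immunised group lost its call without naive replicate 3 (limma adjusted p = 0.0519). The transferred group against culture had −3.68 to −2.12 for Il17a and −0.53 to 0.0695 for Il17ra, which reversed to 0.0695 without cultured replicate 2 and to 0.0286 without transferred replicate 3. The immunised group against culture had −2.0 to −0.44 for Il17a, −2.89 to 0.22 for Il22, reversed without cultured replicate 2, and −1.62 to −0.43 for Il17rc. Between the CNS groups the genes called ranged from 193, without immunised replicate 1, to 1290, without cultured replicate 3, and Il22 from 4.46 to 4.79. The within-array differences ranged from 4.0 to 4.86 for Il17a minus Il17f and from 1.62 to 2.22 for Il17ra minus Il17rc. Unless stated, the cause of a lost or gained call was not tested.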
